A study of Mus musculus with 2 samples.

Results

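At gastrulation the primitive streak forms at the posterior side of the mouse embryo under WNT/β-catenin signalling. WNT ligands made in the streak bind Frizzled and LRP receptors and stabilise β-catenin, which acts with TCF/LEF factors on target genes. Some of these targets, *Axin2*, *Nkd1*, *Nkd2*, *Sp5* and *Lef1*, feed back on the pathway, and homeobox genes such as *Mixl1*, *Evx1* and *Nkx1-2* mark cells of the streak and the posterior epiblast. These genes and the streak ligands *Wnt3* and *Wnt3a*, 10 in all, were chosen by name and read on both arrays through the RefSeq accessions of their probes. They are 10 of the 14770 genes measured, meaning those with a probe well above background in both embryos. All 10 had at least 1 probe, and all 15 of their probes were well above background in both embryos and carried no outlier mark.

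RNA of 1 *Dullard*-heterozygous (Dullard+/-) and 1 *Dullard*-homozygous (Dullard-/-) whole embryo at E7.5, both labelled C57BL/6, was read on 1-colour arrays, 1 array per embryo, on the same slide and in the same scan. *Dullard* (*Ctdnep1*) encodes a serine/threonine phosphatase of the nuclear envelope. The comparison group thus carries a mutant copy of *Dullard* too, and no wild-type embryo was on the arrays. The study made a null allele and a *LacZ* allele in embryonic stem cells that carried DNA of other strains, gave embryos of either allele the same name, and does not say which the array embryo carried. *Dullard* lies on chromosome 11, as do *Wnt3*, *Wnt3a* and *Axin2*. Its single probe read 672 in the heterozygote (Dullard+/-) and 144 in the homozygote (Dullard-/-), 4.31-fold lower but still well above background. The null allele lacks all exons. The place of the probe in the transcript is not known here, so with the *LacZ* allele it may lie outside the replaced part and check nothing, and the source of the remaining signal was not tested.

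A signal below is the background-subtracted intensity of a spot. A log2 fold change is the Dullard-/- over the Dullard+/- signal after each array was divided by its 75th percentile, which was 286 and 264, and for a gene it is the mean over its probes. No difference has a replicate check or a p-value, and each describes these 2 embryos. The error after ± of a probe is the SD between spots of the same probe, taken from replicated probes of similar signal. For a gene with several probes it is that error carried to their mean. It leaves out the spread between probes of a gene and between embryos. The error that the extraction program gave for a spot was larger, and came to between 0.20 and 0.34 on the log2 scale for the 15 probes. Levels of different probes cannot be compared, so the genes are not ranked by level. In RNA of a whole embryo, fewer cells of a type and less RNA per cell cannot be told apart.

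The members stood on both sides of 0. Those higher in the homozygote by 1.5-fold or more were *Mixl1*, *Nkd2* and *Wnt3*, where 3.92% of all genes were. Those lower by as much were *Nkx1-2* and *Wnt3a*, where 3.37% of all genes were. The other 5 members lay within 1.5-fold. At 2-fold, 1 member was higher (*Mixl1*; 0.894% of all genes) and 1 was lower (*Nkx1-2*; 0.765% of all genes). *Nkx1-2*, at -1.01, was just past 2-fold, and under 5 of 9 alternatives (scaling to the median, quantile normalization, loess, the mean of linear folds and normexp) it lay between -0.97 and -0.21 and 0 members were 2-fold lower. The median log2 fold change of the members was -0.04 and that of all genes 0.01. Disregarding direction, the median size was 0.51 for the members and 0.15 for all genes. The members were chosen with earlier results of these data known, so these shares and sizes are descriptions and not a test. Without scaling between the arrays the all-gene median went from 0.01 to -0.10, the counts of all genes past 2-fold, higher and lower, turned from 132 and 113 to 90 and 165, and *Wnt3* was at 0.57, just inside 1.5-fold.

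**Figure D1:**
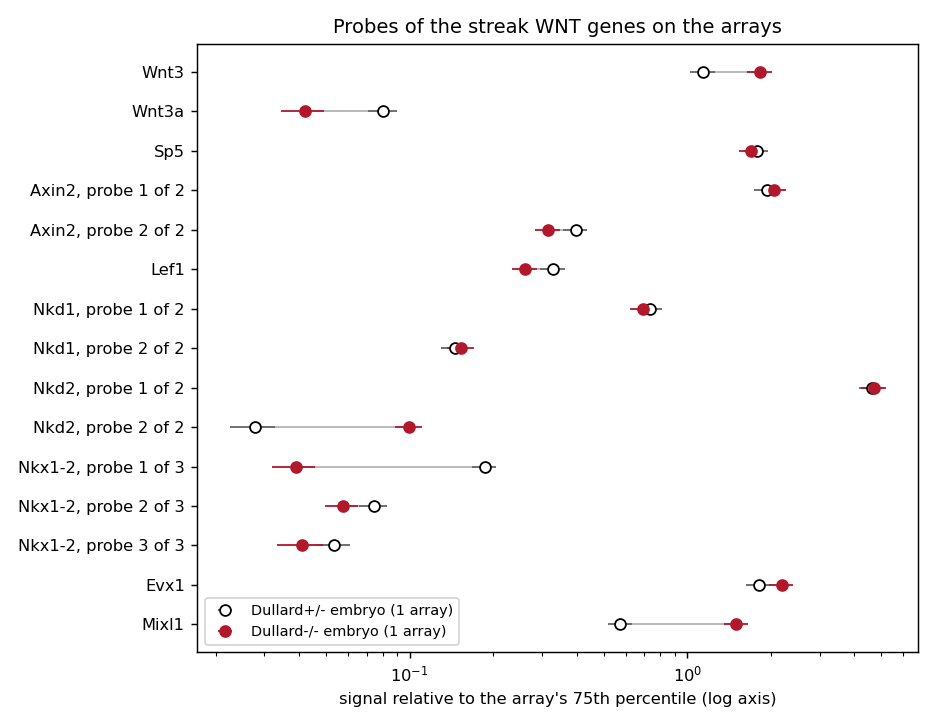
Signal of each of the 15 probes on a horizontal log axis, divided by the 75th percentile on that array, open circles for the Dullard+/- and filled circles for the Dullard-/- embryo, 1 array each. Bars are the error the extraction program gave for the spot. The signals of *Mixl1*, *Wnt3*, 1 *Nkd2* probe and 1 *Nkx1-2* probe lie furthest apart, with that of *Wnt3a*.

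*Wnt3*, the ligand needed to form the streak, read 326 in the heterozygote and 484 in the homozygote (log2 fold change 0.68 ± 0.06). Of the 500 genes closest in mean signal, 1.2% were higher by 1.5-fold or more. *Wnt3a*, which acts later in the streak and tail bud, read 23.0 in the heterozygote and 11.1 in the homozygote (log2 fold change -0.94 ± 0.25). Its probe is dim. The lowest signal well above background was 6.20 on the Dullard+/- and 7.27 on the Dullard-/- array, and 16.2% of the 500 genes closest to *Wnt3a* in mean signal were lower by 1.5-fold or more. The streak ligands thus stood on opposite sides of 0, on a bright and on a dim probe. Both rest on 1 probe each.

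Among the feedback genes, *Sp5*, a zinc finger repressor induced directly by β-catenin, read 510 in the heterozygote and 450 in the homozygote (log2 fold change -0.07 ± 0.06). *Lef1*, a TCF family factor that is itself a target of the pathway, had signals of 94.1 and 68.9 and a log2 fold change of -0.34 ± 0.10. *Sp5* was thus about level and *Lef1* lower, inside 1.5-fold, and each has 1 probe.

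*Axin2*, a scaffold of the β-catenin destruction complex, has 2 probes. The brighter gave 555 in the heterozygote and 545 in the homozygote (log2 fold change 0.09 ± 0.05) and the dimmer 114 and 83.3 (-0.33 ± 0.09). They stood on opposite sides of 0, and their mean was -0.12. *Nkd1*, a Naked cuticle protein that binds Dishevelled and damps the pathway, gave 210 and 183 on its brighter probe (-0.09 ± 0.07) and 41.6 and 40.6 on its dimmer (0.08 ± 0.15). Its mean of -0.01 was nearer to 0 than that of any other member.

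*Nkd2*, the other Naked cuticle protein, was at 0.94 ± 0.13 over 2 probes that did not give the same value. The brighter probe read 1325 in the heterozygote and 1247 in the homozygote (log2 fold change 0.03 ± 0.05). The dimmer read 7.92 in the heterozygote and 26.4 in the homozygote, 1.85 ± 0.25, and its lower signal is near the lowest well above background on that array. The place of *Nkd2* among the genes that were at least 1.5-fold higher therefore rests on that dim probe, and its brighter probe was level. Both probes carry the same accession (NM_028186). The distance between them, 1.83, was reached or passed by 14 of 3747 genes with several probes (0.374%).

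**Figure D2:**
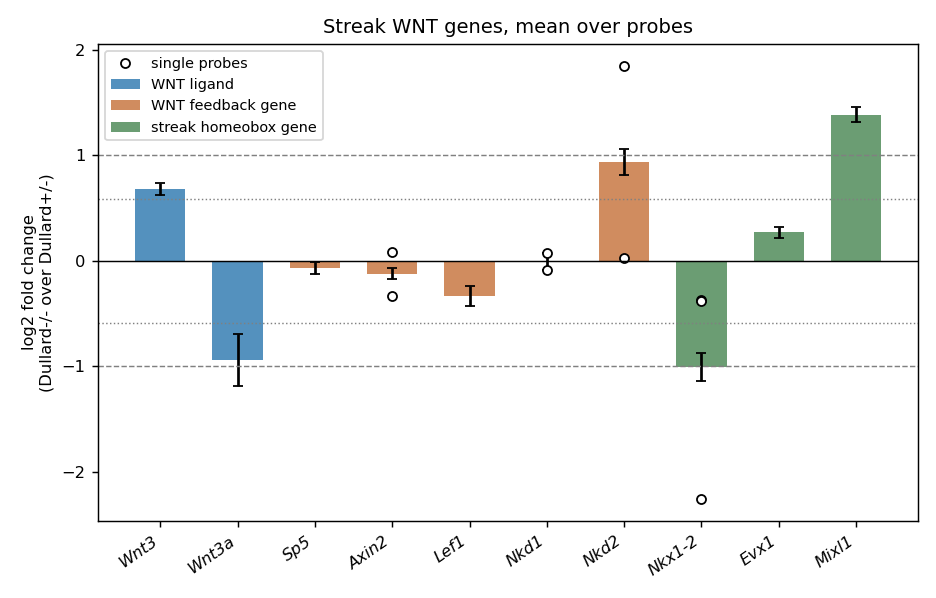
The vertical axis is the log2 ratio of homozygote to heterozygote for the 10 genes, 1 embryo per genotype. Bars are means over probes, with the error from replicate spots carried to the mean, which leaves out the spread between probes. Open circles are single probes of genes with several, and dotted and dashed lines mark 1.5-fold and 2-fold. The *Nkd2* probes lie at 0.03 and 1.85, and the *Nkx1-2* probes at -0.37, -0.38 and -2.26.

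The stretch before the start of *Sp5* is shown because it holds more of the letters read by TCF/LEF factors than that of any other member. RefSeq promoter windows (GRCm38.p6) were found for 9 of the 10 members, 12 windows in all, since *Lef1* has several starts. The 250 bases before each start were searched on both strands for CTTTGA and CTTTGT, whose letters differ only at the last base and cannot overlap at the same place. Of all 32851 such windows 27.6% held at least 1 match, 0.776% at least 3 and 0.0944% at least 4. The *Sp5* window held 4 matches, 1 of the *Lef1* windows held 3, and the other 10 windows held none. Capitals mark the matches, in *Sp5* at chr2:70474673-70474922 (plus strand, 5′ to 3′) and in 26-base stretches of the *Lef1* window at chr3:131156104-131156129, chr3:131156138-131156163 and chr3:131156164-131156189 (plus strand).
Sp5: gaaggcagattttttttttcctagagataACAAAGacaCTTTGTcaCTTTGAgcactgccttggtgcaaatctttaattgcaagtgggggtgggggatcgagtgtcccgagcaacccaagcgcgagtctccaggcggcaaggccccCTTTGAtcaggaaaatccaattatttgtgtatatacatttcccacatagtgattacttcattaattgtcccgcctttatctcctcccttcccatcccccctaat
Lef1, first: aaatacatggTCAAAGgaaaataggt
Lef1, second: acctcagaatACAAAGtaggattgca
Lef1, last: ttgtctgttcTCAAAGtcaggtcttg
In *Sp5*, 3 of the matches stand together between 221 and 199 bases before the start. A match is a run of letters and not a measured site. *Sp5*, with 4 matches, was at -0.07 on the log2 scale and *Lef1* at -0.34. The other 7 members with a window, which ran from *Nkx1-2* at -1.01 to *Nkd2* at 0.94 and include *Nkd1* at -0.01, held none.

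Of the homeobox genes, *Mixl1*, a paired-type factor of the streak and nascent mesendoderm, read 164 in the heterozygote and 397 in the homozygote, a 2.62-fold difference (log2 fold change 1.39 ± 0.07). Of the 500 genes closest in mean signal, 1.4% were higher by 1.5-fold or more and 0% by 2-fold or more. *Evx1*, which marks the posterior streak, had signals of 519 and 579, a log2 fold change of 0.27 ± 0.05. That is above its replicate-spot spread and close to the 0.20 that the extraction program gave as error. Each of these genes has 1 probe.

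*Nkx1-2*, expressed in the streak and later in the caudal epiblast, was at -1.01 ± 0.14 over 3 probes. The brightest read 53.3 in the heterozygote and 10.3 in the homozygote (-2.26 ± 0.21), the next 21.3 and 15.2 (-0.37 ± 0.24) and the dimmest 15.3 and 10.9 (-0.38 ± 0.25). All were lower in the homozygote, 1 far more than the others, and all are dim there. The mean was -0.38 without the brightest probe, inside 1.5-fold, and -1.32 without either of the others. Of 3747 genes with several probes, 9 had probes this far apart (0.24%). As reported, *Mixl1* and *Nkx1-2*, both genes of the streak, stood furthest from 0 among the members, on opposite sides. *Wnt3a* at -0.94 and *Nkd2* at 0.94 were close to *Nkx1-2* in size. With scaling to the median, quantile normalization, loess, the mean of linear folds and normexp, *Nkd2* stood further from 0 than *Nkx1-2*.

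**Figure D3:**
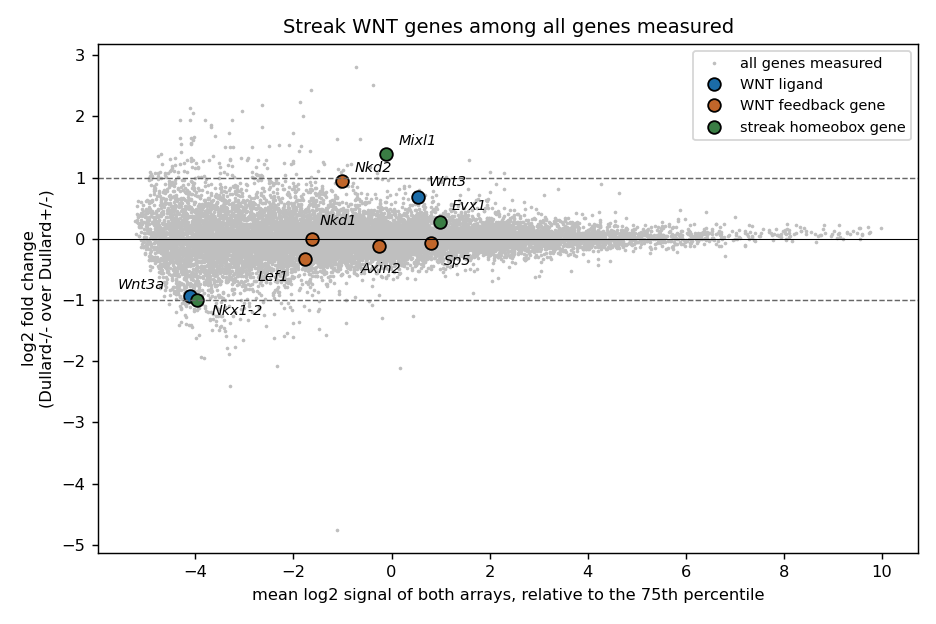
The vertical axis is the log2 ratio of homozygote to heterozygote against the mean log2 signal relative to the 75th percentile (horizontal axis) for all 14770 genes, with the 10 streak WNT genes in colour and 2-fold as dashed lines. *Mixl1* at 1.39 and *Wnt3* at 0.68 stand at signals where the genes around them lie close together, and *Wnt3a* and *Nkx1-2* at signals where they are spread.

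Lists of related genes, written with earlier results of these data known, place the members in the pathway. Of 16 other measured ligands and proteins that process them, 1 was at least 1.5-fold higher and 1 lower, with a median of 0.06. These were *Wnt10b* at 0.81 and *Porcn*, the acyltransferase that lipidates WNT proteins, at -0.71. The next were *Wnt6* at 0.21 and *Wnt7a* at -0.27. Of 20 measured receptors, co-receptors and R-spondins, 3 were at least 1.5-fold higher and 0 lower, with a median of -0.02. *Fzd8* was at 0.73 and *Fzd7* at 0.73, while *Fzd9* was at -0.56 and *Lgr5* at -0.40.

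Of 14 measured genes listed as antagonists, 3 were at least 1.5-fold higher and 1 lower, with a median of 0.11. *Sfrp5* was at 1.01 and *Cer1* at 0.75, secreted inhibitors made in the anterior visceral endoderm. Whether *Cer1* acts on WNT in these embryos was not tested. *Apcdd1* was at -0.69 and *Dkk4* at -0.50. The probes of *Apcdd1* (26.5 in the heterozygote and 15.2 in the homozygote) and *Dkk4* (21.2 and 13.8) are dim. Those of *Sfrp5* (437 and 815) and *Cer1* (5493 and 8523) are bright. *Rnf43*, a ubiquitin ligase that clears Frizzled and is a feedback target like the members, was singled out after its value was seen. It was not well above background in the heterozygote (3.36) and read 17.8 in the homozygote, higher by at least 3.11-fold. The bound takes the lowest signal well above background, or the probe's own where higher, on the dim array.

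Of 16 measured transducers and destruction complex genes, 1 was at least 1.5-fold higher and 0 lower, with a median of 0.06. *Dact3*, a Dishevelled-binding protein, was at 0.95 and *Ctnnb1*, which encodes β-catenin, at 0.44. *Axin1* was at -0.19 and *Dvl1* at -0.13. All 13 measured TCF partners and nuclear cofactors lay within 1.5-fold, with a median of 0.04, from *Bcl9* at -0.44 and *Tcf7l2* at -0.43 to *Tle3* at 0.31 and *Cby1* at 0.47. The 3 *Tcf7l2* probes ran from -1.39 to 0.06.

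Of 15 other measured WNT response genes, 4 were lower by 2-fold or more, where 0.765% of all genes were. Higher by 1.5-fold or more were 0, where 3.92% of all genes were. The median of this list, written with earlier results known, was -0.16. *Msgn1*, a factor of presomitic mesoderm, was at -1.88 and *Cdx1*, a caudal homeobox gene, at -1.32. *T* and *Dll1*, named after their values were seen, were at -1.19 and -1.14. Each has 1 probe, and those of *Msgn1* (55.4 in the heterozygote and 13.9 in the homozygote) and *Cdx1* (52.7 and 19.6) are dim in the homozygote. *Jun*, an AP-1 factor, was at 0.27. *Cdx4*, also singled out by its values, was well above background only in the heterozygote, with signals of 18.6 and 5.31, so it was lower in the homozygote by at least 2.36-fold. The feedback genes among the members, with a median of -0.07 over 5 genes, reached no further down than *Lef1* at -0.34. Of 18 measured other genes of the streak and posterior mesoderm, 5 were at least 1.5-fold higher and 4 lower, with a median of 0.02, from *Nodal* at 0.999 and *Fgf8* at 0.94 to *Fgf4* at -1.59. This list stood on both sides of 0, as did the members.

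**Figure D4:**
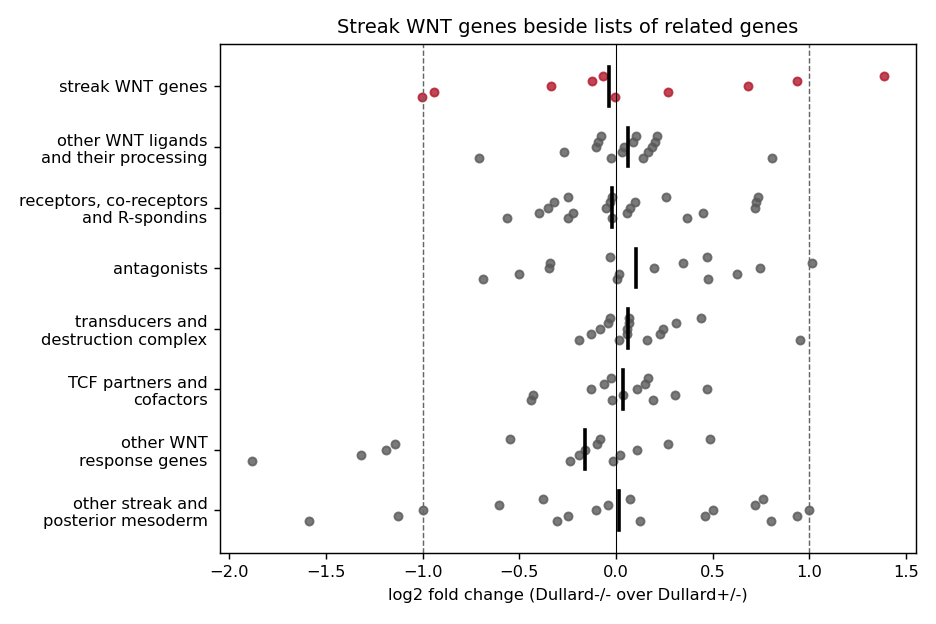
The horizontal axis is the log2 ratio of homozygote to heterozygote of each measured gene, as a point, in the 10 streak WNT genes and 7 lists of related genes, 1 embryo per genotype. Vertical ticks are medians and dashed lines mark 2-fold. The streak WNT genes spread from -1.01 to 1.39, and all 13 TCF partners and cofactors lie within 1.5-fold.

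Close relatives of the members were read as well. *Sp8*, which resembles *Sp5* and also responds to WNT, was at -0.55 ± 0.10, with its 2 probes at -0.10 and -0.99. *Tcf7* and *Tcf7l1*, relatives of *Lef1*, were at -0.02 ± 0.05 and 0.11 ± 0.08. *Evx2*, the neighbour and relative of *Evx1*, was dim, with signals of 13.1 and 11.3 (-0.10 ± 0.25). *Nkx1-1* had no probe, and none of the 6 relatives measured was 1.5-fold higher or lower.

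Markers of tissues of the embryo were read, with those of maternal decidua and of red blood cells beside them. The red blood cell genes were not tested for whether they come from definitive cells or from the embryo's own early ones. Of the markers with a probe, 7 of 8 neural plate and anterior ectoderm, 6 of 6 epiblast, 8 of 8 visceral endoderm, 7 of 8 extraembryonic ectoderm and trophoblast, 2 of 6 maternal decidua and 3 of 6 definitive red blood cell genes were well above background on both arrays. *Pax6*, *Tpbpa*, *Prl8a2* and *Hoxa10* were so on neither. The summed signal of a list, relative to the 75th percentile, was 11.9 in the heterozygote and 18.9 in the homozygote for neural plate and anterior ectoderm and 605 and 651 for epiblast. It was 94.4 and 93.1 for visceral endoderm, 13.6 and 13.2 for extraembryonic ectoderm and trophoblast, 0.152 and 0.215 for decidua, and 2.09 and 0.874 for red blood cells. These sums add probes of unlike brightness, and *Otx2* supplied most of the neural plate sum and *Nanog* most of the epiblast sum. Gene by gene, the neural plate and anterior ectoderm list had a median log2 fold change of 0.32, with *Otx2* at 0.82, *Hesx1* at 0.62 and the other 5 of 7 genes within 1.5-fold. The epiblast list had a median of 0.08, with *Fgf5* at 0.89, *Tdgf1* at 0.87 and the other 4 of 6 genes within 1.5-fold. The medians were 0.04 for visceral endoderm, -0.08 for extraembryonic ectoderm and trophoblast, -0.08 over 2 decidua genes and -0.95 over 3 red blood cell genes. The decidua and red blood cell medians leave out genes well above background on 1 array only. *Hbb-bt*, *Hbb-bs* and *Hbb-b2* were so only in the heterozygote, lower in the homozygote by at least 7.18-fold, 2.93-fold and 1.48-fold. *Hoxa11* was so only in the homozygote, higher there by at least 3.64-fold. The part of these differences in the values of the streak WNT genes was not tested, and the design cannot tell them apart from the genotype.

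**Figure D5:**
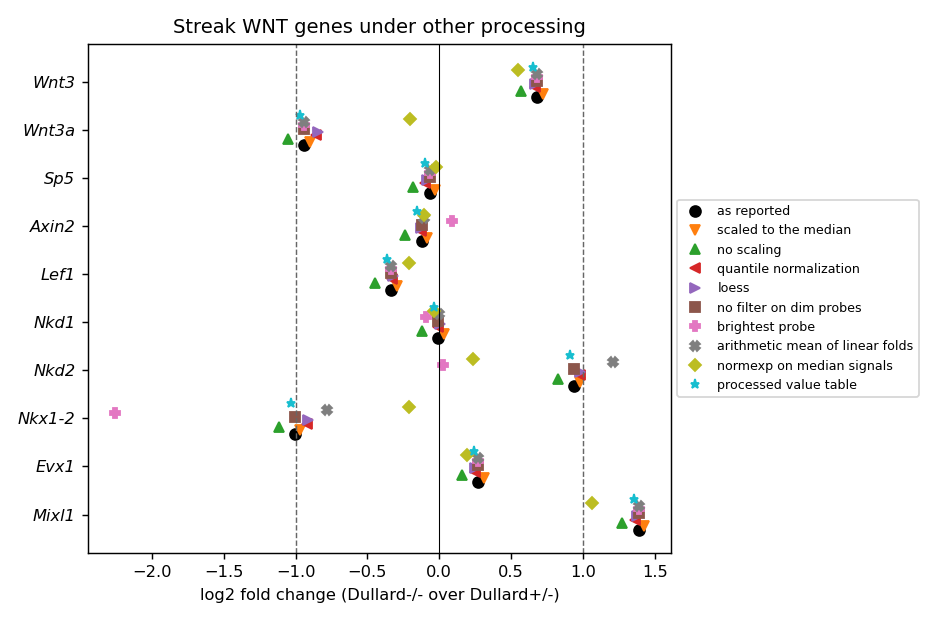
The horizontal axis is the log2 ratio of homozygote to heterozygote of the 10 genes as reported (black circles) and under 9 other ways of processing, 1 embryo per genotype, with 2-fold as dashed lines. *Mixl1* stays between 1.06 and 1.43, while *Nkd2* and *Nkx1-2* move with the choice of probe.

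The processing bore most on the dim members and on those whose probes stood apart. Over 9 alternatives *Mixl1* lay between 1.06 and 1.43 and *Wnt3* between 0.55 and 0.72. *Evx1* lay between 0.16 and 0.31, *Lef1* between -0.45 and -0.21 and *Sp5* between -0.18 and -0.02. *Axin2* (-0.24 to 0.09) and *Nkd1* (-0.12 to 0.03) changed sign. *Nkx1-2* ranged from -2.26 with its brightest probe to -0.21, *Wnt3a* from -1.05 to -0.20, and *Nkd2* from 0.03 with its brightest probe to 1.21. The nearest to 0 of *Nkx1-2* and *Wnt3a* came from normexp background correction, whose added offset of 50 is above these signals in the homozygote and pulls the ratios of dim probes toward 0 by construction. For the 6 members with 1 probe, the brightest probe and the mean of linear folds return the reported value by construction. Dropping the filter does so for all 10 members, as all 15 probes pass it. Scaling to the median, no scaling and the processed table each shift all members by nearly the same amount.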

How the data were processed

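Total RNA of 1 Dullard+/- and 1 Dullard-/- embryo was hybridised to 1-colour Agilent whole-genome arrays. The paper and the labels differ on the input and the kit of the amplification. The authors deposited scanner intensity values per spot, already background-subtracted, from Agilent Feature Extraction 10.10 (the submitters' processing notes), and a table of processed intensity values that equals the scanner signal times a constant per array, 4.91 and 5.20 (medians 189 and 181). What set the constants is not stated in the paper or the labels, and the table served as an alternative. Precision is limited by having 1 array per genotype.

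The log2 of each of 43020 non-control spots was taken relative to the array's 75th percentile. The 206 spots with an outlier mark were left out, no spot was saturated, and spots of 1 probe were averaged. Accessions without versions named 30235 spots through the RefSeq table of GRCm38.p6. The arrays were designed on another build, so no coordinates of probes or gene bodies are given. Chromosomes and promoter windows come from RefSeq on GRCm38.p6. Gene values are means over probes well above background on both arrays. The replicate-spot error pools the 40 nearest of 266 replicated probes. Alternatives were scaling to the median, no scaling, quantile normalization, loess (span 0.3), the brightest probe only, dropping the filter on dim probes, the mean of linear folds, normexp (offset 50, on median signals, as no mean signal was used here) and the processed table.

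The members, lists and sizes of 1.5-fold and 2-fold were chosen with earlier results of these data known. Named are all members, their relatives, and the 2 highest and 2 lowest genes of each pathway list, except some that are not reported here. The steps were tested on simulated arrays with known fold changes. These were built from the heterozygote signals, with equal noise at all signals and the same filter on both arrays. That test does not bear on dim probes, the filter or probes that disagree. The tools were limma 3.58.1 in R 4.3.3, and pandas 2.3.3 with numpy 2.4.6 in Python 3.11.15.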

Additional observations from a re-analysis of the deposited data

How the results depend on the processing

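No paired analysis was possible because each genotype has 1 embryo, and for the same reason no replicate could be left out. Of the members, 2 were at least 2-fold higher with the mean of linear folds (*Mixl1* and *Nkd2*), and 1 was at least 1.5-fold higher with normexp background correction. The number at least 2-fold lower was 0 with scaling to the median, quantile normalization, loess, the mean of linear folds and normexp, and 2 without scaling, where *Wnt3a* joined *Nkx1-2*. With normexp the number at least 1.5-fold lower was 0. Of 94 measured WNT pathway genes outside the members, 1 was at least 2-fold higher (0.894% of all genes) and 4 lower (0.765% of all genes). The number higher was 0 without scaling, with quantile normalization, with loess, with normexp and with the processed table, and 2 when dim probes were kept. The number lower was 0 with normexp. Counted over all genes, 484 passed 2-fold higher and 778 lower when dim probes were kept, against 132 and 113 as reported, and 10 and 5 did with normexp, whose offset of 50 exceeds the median signal of either array (38.6 and 34.8). No called member reversed its direction under any of the 9 alternatives, some of which return the reported value of a member with 1 probe by construction. Signal over background limits *Wnt3a*, *Nkx1-2* and the dimmer *Nkd2* probe.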
